A study of Mus musculus with 12 samples.

Results

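Cytochrome P450 enzymes of families 1 to 4 oxidize fatty acids, steroids, retinoids, drugs and carcinogens in the endoplasmic reticulum, using electrons passed on by P450 reductase. In liver and intestine their genes are known targets of ligand-activated receptors: the aryl hydrocarbon receptor for family 1, CAR for Cyp2b, PXR for Cyp3a and PPAR alpha for Cyp4a. Absorptive cells of the gut carry their own set of these enzymes, which act on compounds from the lumen and on arachidonic acid. The genes described here were chosen by symbol alone, as every gene named Cyp followed by a family number from 1 to 4, a subfamily letter and a gene number that had a probe on the array. There were 63 such genes among 18502 genes with a symbol, counted after probes flagged as outliers were left out. Each gene was read from its brightest probe.

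Female BALB/c mice, given as 5 to 7 weeks old in the labels, gave epithelium of the distal colon and rectum on day 100, whose RNA was measured on 12 one-colour arrays in 4 groups of 3. Control mice were untreated, and their epithelium was scraped off. DSS mice drank dextran sulfate sodium, which injures the colon lining and causes colitis, for 5 days in every 21, in 3 cycles from day 5. AOM mice received azoxymethane, a colon carcinogen activated by P450 enzymes, at 10 mg/kg each week for 6 weeks. AOM/DSS mice received azoxymethane once, at 12.5 mg/kg on day 1, followed by the same DSS cycles, and their arrays hold clipped neoplasms. AOM and DSS epithelium was scraped like that of controls and kept in Trizol, whereas neoplasms went into RNA storage solution, so disease, AOM dose and handling cannot be told apart. Nothing in the labels ties each replicate to a mouse of its own, so the p-values measure only how far these samples differ, and that spread may be technical.

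Values are log2 processed intensity minus the 75th percentile of the array, so 0 is the level of a fairly bright probe, and they compare one gene between arrays, not genes with each other. That percentile lay between 1115 and 1185 intensity units for AOM/DSS and between 393 and 694 for the remaining groups, which places background lower on the AOM/DSS arrays after scaling. The 14 P450 genes that were well above background on no array show the size of this: their median difference was -1.21 for AOM/DSS against control (range -1.63 to 0.02), -0.60 for AOM against control and -0.23 for DSS against control. The arrays lay on 3 slides, with AOM replicates 1 and 2 beside AOM/DSS replicates 1 and 2, AOM replicate 3 beside all DSS arrays, and AOM/DSS replicate 3 beside all controls. AOM and DSS epithelium therefore shared no slide with controls. AOM replicate 1 resembled DSS replicate 2 (r = 0.978 across all genes) more than the other AOM arrays. Pancreatic acinar markers were bright on control replicate 3 (summed level 9.33), DSS replicate 1 (6.62) and control replicate 1 (4.76), against -1.88 to 1.43 on the other 9 arrays. Colonocyte markers, 7 of 8 on the array, summed to 8.82 to 9.96 in controls, 8.59 to 9.20 after DSS, 7.72 to 8.64 after AOM and 5.74 to 6.02 in AOM/DSS. The AOM/DSS sum came mostly from Car1, which read 4.45 to 5.33 there and 3.54 to 4.19 in controls, and Krt20, which read 4.09 to 4.63 there and 7.10 to 8.49 in controls. Slc26a3 and Car4 were above background on 2 of 3 AOM/DSS arrays. Pan-epithelial markers summed to 9.32 to 9.58 in AOM/DSS and 10.11 to 10.94 in controls. Of 5 hepatocyte markers, Alb was above background on 10 arrays (-4.16 to -1.48 over all 12), Ttr on 7, Apoa2 on 2, Apoa1 on 1 and Fgb on none.

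The number of P450 genes well above background ran from 28 to 37 per array. Of the 63 genes, 20 were above background on all 12 arrays, 14 on none and 29 on some. Testing required signal above background on all 3 arrays of some group, which 35 genes met. By limma's F test over the 4 groups, 28 of the 35 differed, where 52.6% of all genes did. Detection followed the subfamily: all 7 Cyp2d genes, 9 of 11 Cyp2c genes and 4 of 5 Cyp2b genes were tested, against 4 of 7 Cyp4f, 3 of 5 Cyp2j, 2 of 6 Cyp3a and 1 of 6 Cyp4a genes. No family 1 gene was tested. Cyp1a1, the classic target of the aryl hydrocarbon receptor, was above background on AOM replicate 1 and on no other array, and Cyp1a2 and Cyp1b1 on none. Cyp2e1, known as the liver enzyme that oxidizes azoxymethane, was above background on none of the 12 arrays. The same held for 3 of 4 Cyp2a genes, while Cyp2a4 passed on 1 array each of AOM/DSS, AOM and DSS. Of the remaining untested genes, Cyp2b23, Cyp2c38, Cyp2c54, Cyp2j5, Cyp3a16, Cyp4a12b, Cyp4a31 and Cyp4f15 passed on no array, and Cyp2g1, Cyp2j11, Cyp2r1, Cyp2w1, Cyp3a25, Cyp3a41a, Cyp3a44, Cyp4a12a, Cyp4a14, Cyp4a29, Cyp4f39 and Cyp4f41-ps passed on 1 to 4.

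Neoplasms of AOM/DSS mice held less of most P450 transcripts than control epithelium. Of the 35 tested genes, 23 fell, 5 rose and 7 did not pass (limma, Benjamini-Hochberg adjusted p under 0.05 over 18917 genes). Across all genes tested, 34.7% were called, 17.3% higher and 17.5% lower. The median P450 difference was -2.69, against 0.03 over all genes. Without overlap of the groups, 26 P450 genes lay below control (26.2% of all genes) and 6 above (26.3%). Because the test admits a gene through the group where it is bright, the 20 genes above background on all 12 arrays are given separately: in a fit of such genes alone 16 fell and 1 rose, with 23.4% of all such genes lower and 15.8% higher. The falls spanned all 7 Cyp2d genes, 7 of 9 Cyp2c, all 4 Cyp4f, and Cyp2f2, Cyp2s1, Cyp3a13, Cyp4b1 and Cyp4v3. The rises were 4 Cyp2b genes and Cyp2j6. All 28 differences had the same sign within the 1 slide that held AOM/DSS replicate 3 and the 3 controls. None of the 28 had overlapping groups, so that sign was fixed beforehand and is no separate support. With slide as a block 21 were still called, where 11.7% of all genes were. In bulk tissue, fewer cells of a type and less RNA per cell cannot be told apart. Colonocyte markers (5 of 7 lower), goblet markers (7 of 7) and enteroendocrine markers (5 of 5 tested) fell in the same comparison, and their part in the P450 result was not tested. Under normexp background correction, 22 genes fell and none rose, where 14.5% of all genes were called.

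**Figure D1:**
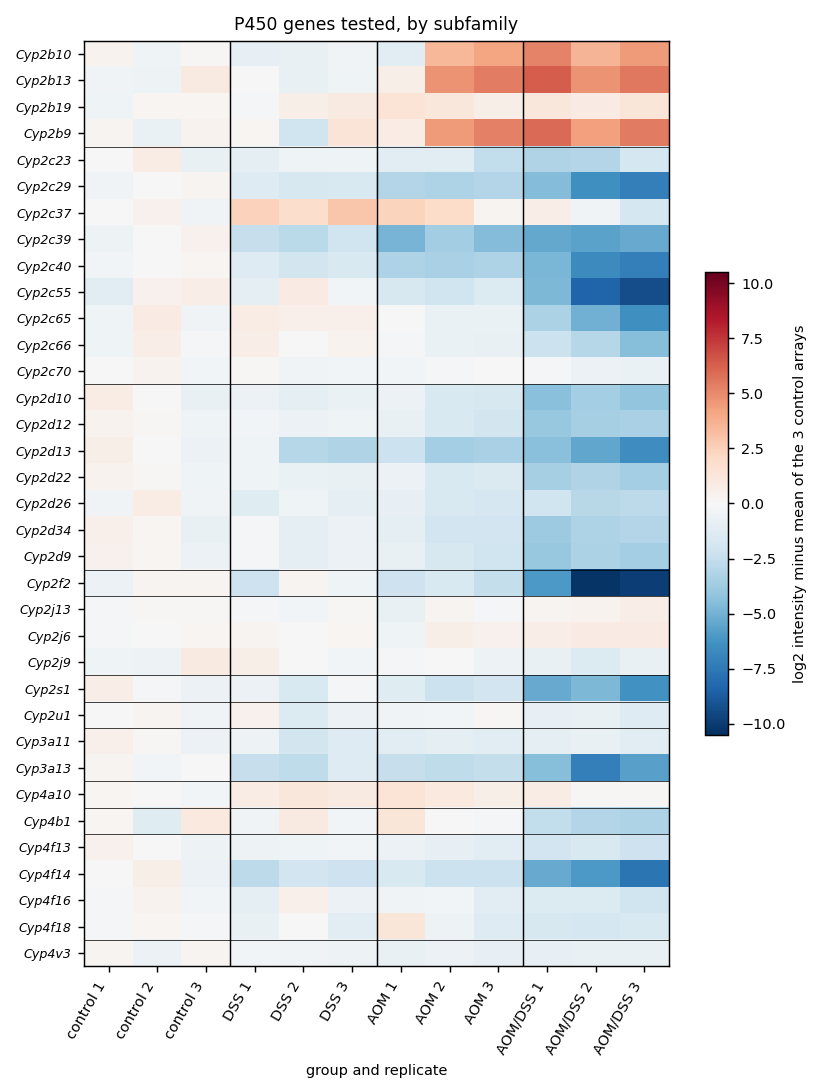
Each row is 1 of the 35 tested P450 genes, ordered by subfamily, and each column 1 array. Colour gives scaled log2 intensity minus the mean of the 3 control arrays, blue for lower and red for higher. The AOM/DSS columns are blue for most Cyp2c genes and for Cyp2d, Cyp2f2, Cyp2s1, Cyp3a13 and Cyp4f genes, and red for Cyp2b9, Cyp2b10 and Cyp2b13.

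Members of the Cyp2c subfamily, clustered on chromosome 19, oxidize arachidonic acid and retinoids as well as drugs. Cyp2c29 and Cyp2c40 separated all 4 groups in one order, with every control array above every DSS array, every DSS above every AOM and every AOM above every AOM/DSS array. Among genes above background on all 12 arrays, that order was met by 2 of 20 P450 genes and by 0.714% of all genes, and the reverse order by no P450 gene and 0.109%. The order was not set in the design, so these shares are descriptions and carry no test. Both genes lie in the same cluster, and whether their probes share signal was not tested. The stretches upstream of these genes and of Cyp2c39, their neighbour, are shown because all 3 fell in AOM/DSS and after AOM. They are the RefSeq promoter windows in GRCm38.p6 up to the outermost annotated start of the gene, which leaves 209 of 250 bases for Cyp2c29 and all 250 for the others. RefSeq gave 2 windows for Cyp2c39, and the first listed was used here and for its identity below. The annotated span of Cyp2c39 includes Cyp2c38, so the window shown may not be the start in use. Capitals mark a nuclear receptor half-site, spelled AGGTCA, or an HNF4-type motif, CAAAGNNCA, on either strand.
Cyp2c29, chr19:39286835-39287043, plus strand: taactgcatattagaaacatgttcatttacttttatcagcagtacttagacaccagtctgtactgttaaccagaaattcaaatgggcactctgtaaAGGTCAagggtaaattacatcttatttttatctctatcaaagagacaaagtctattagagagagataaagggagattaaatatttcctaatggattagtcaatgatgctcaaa
Cyp2c39, chr19:39347096-39347345, plus strand: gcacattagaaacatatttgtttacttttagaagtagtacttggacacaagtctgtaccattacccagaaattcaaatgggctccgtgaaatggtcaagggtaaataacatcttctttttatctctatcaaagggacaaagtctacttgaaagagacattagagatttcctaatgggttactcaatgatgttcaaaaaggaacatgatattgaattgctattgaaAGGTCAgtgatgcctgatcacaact
Cyp2c40, chr19:39812815-39813064, minus strand: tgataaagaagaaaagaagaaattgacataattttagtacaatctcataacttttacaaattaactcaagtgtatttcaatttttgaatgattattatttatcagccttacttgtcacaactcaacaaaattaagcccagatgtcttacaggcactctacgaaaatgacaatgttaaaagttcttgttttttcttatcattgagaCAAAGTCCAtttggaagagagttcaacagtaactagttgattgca
Over the whole windows Cyp2c29 and Cyp2c39 were 74.1% identical, and Cyp2c40, which lies on the opposite strand, was 54.1% identical to Cyp2c29. Counted back from the end of the printed stretch, the half-site began at base -113 in Cyp2c29 and -25 in Cyp2c39, and the HNF4-type motif at -45 in Cyp2c40. Neither motif was present in all 3 stretches.

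Cyp2c29, an epoxygenase of arachidonic acid, read 2.74, 3.15 and 3.42 on the control arrays, 1.79, 1.40 and 1.52 after DSS, 0.04, -0.10 and -0.01 after AOM and -1.41, -3.30 and -4.11 in AOM/DSS. The groups did not overlap, and AOM/DSS replicate 1 was higher than the other neoplasm arrays. Its difference was -6.05 ± 0.53 (SE, adjusted p = 4.84e-05) for AOM/DSS against control, which is 66.1-fold lower, and -3.13 ± 0.53 (SE, adjusted p = 0.00588) for AOM against control. DSS against control gave -1.54 ± 0.53 (SE, adjusted p = 0.172), which did not pass. Cyp2c40, which makes hydroxylated arachidonate products in the intestine, followed the same steps, reading 4.58, 4.95 and 5.12 on the control arrays, 3.57, 2.96 and 3.25 after DSS, 1.64, 1.44 and 1.66 after AOM and 0.12, -1.82 and -2.31 in AOM/DSS. The difference was -6.22 ± 0.50 (SE, adjusted p = 3.35e-05) in AOM/DSS, -3.30 ± 0.50 (SE, adjusted p = 0.00486) after AOM and -1.63 ± 0.50 (SE, adjusted p = 0.154) after DSS. Cyp2c39, an enzyme that clears retinoic acid, read -2.29, -1.79 and -1.30 on the control arrays, -4.23, -4.66 and -3.85 after DSS, -6.64, -5.41 and -6.31 after AOM and -7.20, -7.39 and -7.06 in AOM/DSS. It was well above background on the 3 control arrays and on none of the other 9, so the lower groups give bounds: at least 9.68-fold lower than control for AOM/DSS, at least 6.38-fold lower for AOM and at least 4.88-fold lower for DSS. Its values in these 3 groups have no order. Each group was called against control, with limma adjusted p = 1.32e-05, 0.00244 and 0.022. Cyp2c39 entered the test through the control arrays alone, where it was high, so these calls are no separate support. It was the 1 P450 gene called in DSS epithelium.

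**Figure D2:**
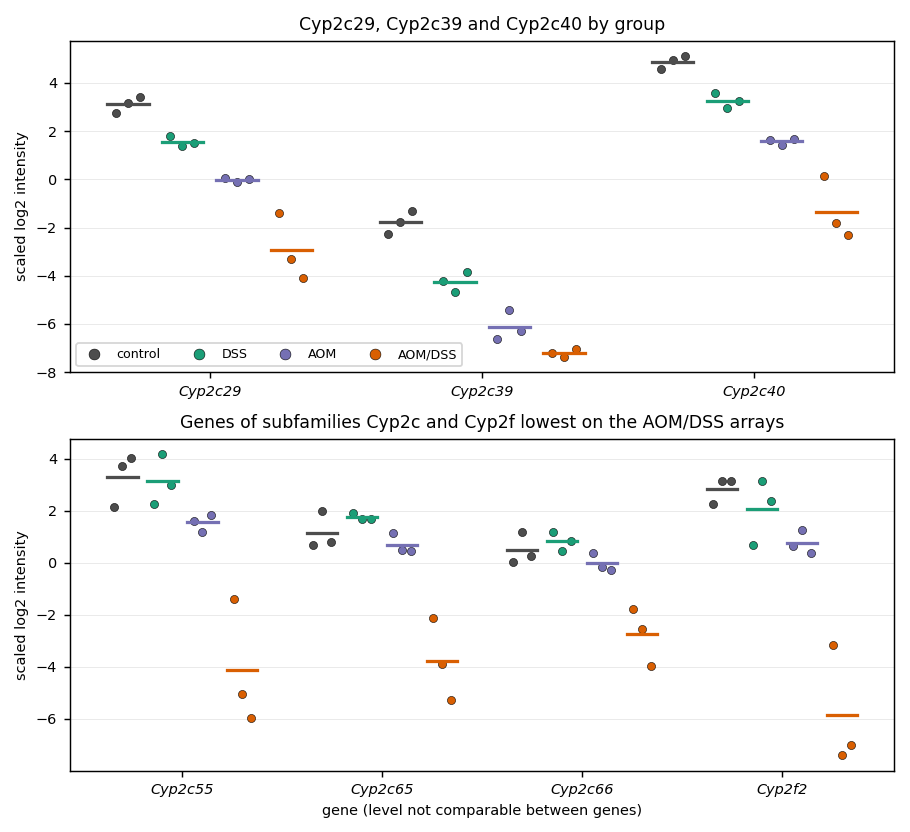
Points give the scaled log2 intensity of 1 gene on 1 array, coloured by group, and lines the mean of 3 arrays. In the upper panel the groups of Cyp2c29 and Cyp2c40 step down from control through DSS and AOM to AOM/DSS without overlap, and Cyp2c39 is above background on the control arrays alone. In the lower panel Cyp2c55, Cyp2c65, Cyp2c66 and Cyp2f2 are low on the AOM/DSS arrays, with replicate 1 the highest of those.

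A second set of Cyp2c genes, neighbours at one end of the cluster, was low in neoplasms and not called after AOM or DSS. Cyp2c55, a colon-enriched arachidonate hydroxylase, read 2.15, 3.75 and 4.05 on the control arrays, 2.27, 4.20 and 3.01 after DSS, 1.61, 1.20 and 1.86 after AOM and -1.38, -5.05 and -5.96 in AOM/DSS. Its difference in AOM/DSS was -7.45 ± 1.01 (SE, adjusted p = 0.000479), with 1 of 3 neoplasm arrays above background, and it was -1.76 ± 1.01 (SE, adjusted p = 0.193) after AOM. Cyp2c65 read 0.70, 2.01 and 0.79 on the control arrays, 1.92, 1.68 and 1.70 after DSS, 1.16, 0.49 and 0.44 after AOM and -2.13, -3.90 and -5.27 in AOM/DSS. The neoplasm arrays lay below all others, and its difference from control was -4.94 ± 0.65 (SE, adjusted p = 0.000397), with 2 neoplasm arrays above background. Cyp2c66, like Cyp2c65 an intestinal enzyme of arachidonate metabolism, read 0.03, 1.21 and 0.26 on the control arrays, 1.20, 0.47 and 0.86 after DSS, 0.36, -0.16 and -0.27 after AOM and -1.76, -2.54 and -3.97 in AOM/DSS, a difference of -3.25 ± 0.51 (SE, adjusted p = 0.00104). In all 3 genes AOM/DSS replicate 1 was the highest neoplasm array, and against AOM the falls were -5.69, -4.46 and -2.73 (adjusted p = 0.00486, 0.00223 and 0.0056).

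Cyp2c23, an epoxygenase best known from kidney, read -1.68, -0.96 and -2.50 on the control arrays, -2.72, -2.19 and -2.18 after DSS, -2.90, -2.89 and -4.26 after AOM and -4.91, -4.76 and -3.54 in AOM/DSS. It fell by 2.69 in AOM/DSS (adjusted p = 0.00274) and fell by 1.64 after AOM (adjusted p = 0.0328). The latter turned to 0.11 with slide as a block. Cyp2c37 went another way, reading -3.72, -3.25 and -4.04 on the control arrays, -1.25, -1.84 and -0.76 after DSS, -1.37, -1.78 and -3.39 after AOM and -3.00, -4.07 and -5.56 in AOM/DSS. It was above background on all AOM and DSS arrays but on 1 control array, and its difference of 2.39 ± 0.65 (SE, adjusted p = 0.128) after DSS did not pass. AOM/DSS differed from AOM by -2.03 (adjusted p = 0.0341) and from DSS by -2.93 (adjusted p = 0.00835). Its second probe gave 0.60 for DSS against control, against 2.39 for the brightest. Cyp2c70, which makes muricholic acids in liver, was not called in any comparison, with levels from -2.83 to -1.71 over the 12 arrays.

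All 7 Cyp2d genes fell in AOM/DSS and after AOM, with smaller differences after DSS that did not pass. This subfamily hydroxylates drugs and steroids and forms a tight cluster of closely similar genes on chromosome 15, so a probe may read more than 1 of them and the genes are not independent. Cyp2d10 read 5.81, 5.08 and 4.21 on the control arrays, 4.40, 4.005 and 4.34 after DSS, 4.45, 3.43 and 3.36 after AOM and 0.68, 1.46 and 0.88 in AOM/DSS. The neoplasm arrays lay below every other array, and the difference was -4.03 ± 0.42 (SE, adjusted p = 0.000103) in AOM/DSS and -1.29 ± 0.42 (SE, adjusted p = 0.0389) after AOM. Cyp2d34 read 6.82, 6.53 and 5.56 on the control arrays, 6.17, 5.35 and 5.67 after DSS, 5.26, 4.29 and 4.26 after AOM and 2.49, 3.07 and 3.23 in AOM/DSS. Its difference was -3.37 ± 0.40 (SE, adjusted p = 0.000215) in AOM/DSS and -1.70 ± 0.40 (SE, adjusted p = 0.0143) after AOM, and again no neoplasm array reached another group.

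Cyp2d13 had the largest fall of the subfamily and read 1.41, 0.77 and 0.12 on the control arrays, 0.31, -2.24 and -2.36 after DSS, -1.50, -2.76 and -2.68 after AOM and -3.60, -4.65 and -5.76 in AOM/DSS. DSS replicate 1 stood with the controls while DSS replicates 2 and 3 stood with the AOM arrays. The difference was -5.44 ± 0.75 (SE, adjusted p = 0.000528) in AOM/DSS, with 2 of 3 neoplasm arrays above background, and -3.08 ± 0.75 (SE, adjusted p = 0.0158) after AOM. DSS against control gave -2.20 ± 0.75 (SE, adjusted p = 0.17). It was called in 1 of 12 fits that left out an array, the one without DSS replicate 1 (-3.06, adjusted p = 0.0130). Cyp2d9, a steroid hydroxylase, read 5.90, 5.65 and 4.80 on the control arrays, 5.22, 4.47 and 4.86 after DSS, 4.64, 3.77 and 3.38 after AOM and 1.49, 2.10 and 1.91 in AOM/DSS. Its probes gave -3.62 and -3.61 for AOM/DSS against control. Cyp2d22, often compared with the main human drug-metabolizing enzyme of this subfamily, read 0.18, -0.04 and -0.61 on the control arrays, -0.65, -0.83 and -0.91 after DSS, -0.76, -1.73 and -1.67 after AOM and -3.62, -3.34 and -3.73 in AOM/DSS. Its difference was -3.40 ± 0.30 (SE, adjusted p = 4.55e-05), or -2.04 by its second probe.

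Cyp2d12 read 3.99, 3.69 and 3.11 on the control arrays, 3.27, 2.94 and 3.16 after DSS, 2.78, 1.97 and 1.71 after AOM and -0.37, 0.13 and 0.16 in AOM/DSS. Among the 7 genes it was the one whose fall after AOM, -1.45 ± 0.32 (SE, adjusted p = 0.0118), stayed called whichever array was left out. That call was lost under normexp correction and with slide as a block (limma adjusted p = 0.38). Cyp2d26 read 3.26, 4.39 and 3.25 on the control arrays, 2.37, 3.15 and 2.62 after DSS, 2.73, 2.03 and 1.89 after AOM and 1.54, 0.71 and 0.88 in AOM/DSS. It had the smallest fall in AOM/DSS, -2.59 ± 0.38 (SE, adjusted p = 0.000754). Over the subfamily the median difference was -3.62 in AOM/DSS, -1.44 after AOM and -0.64 after DSS, and all 7 genes were lower in AOM/DSS than after AOM as well, with a median of -2.17.

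Cyp2f2, known for activating naphthalene in airway club cells, had the largest fall of all P450 genes. It read 2.26, 3.14 and 3.15 on the control arrays, 0.71, 3.17 and 2.36 after DSS, 0.64, 1.27 and 0.37 after AOM and -3.16, -7.42 and -7.02 in AOM/DSS. AOM/DSS replicate 1 was the 1 neoplasm array above background, and DSS replicate 1 was low among DSS arrays. The difference was -8.72 ± 0.98 (SE, adjusted p = 0.000168) in AOM/DSS and -2.09 ± 0.98 (SE, adjusted p = 0.121) after AOM, the latter not called. Since 2 of 3 neoplasm arrays were not well above background, the size of this difference is uncertain. Cyp2s1, an epithelial P450 that responds to the aryl hydrocarbon receptor, read 6.36, 5.53 and 5.00 on the control arrays, 5.00, 4.02 and 5.41 after DSS, 4.38, 3.36 and 3.61 after AOM and 0.36, 0.88 and -0.72 in AOM/DSS. It stayed above background everywhere and differed by -5.46 ± 0.51 (SE, adjusted p = 6.66e-05) in AOM/DSS, by -1.85 ± 0.51 (SE, adjusted p = 0.0235) after AOM and by -0.82 ± 0.51 (SE, adjusted p = 0.361) after DSS.

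Cyp2b genes moved the opposite way, although they lie on chromosome 7 between Cyp2s1 and Cyp2f2. This subfamily is induced in liver by phenobarbital-like compounds through CAR, and Cyp2b9 and Cyp2b13 are known there for higher levels in females. The first 143 bases of the RefSeq promoter windows of Cyp2b9 and Cyp2b13 (GRCm38.p6) are shown. The rest of the Cyp2b13 window lies within the annotated span of that gene, and the Cyp2b9 window was cut to the same length. The 2 bases that differ are in capitals. These stretches are not probe sequences. Whether the probes of these 2 genes share signal was not tested, so both are reported as uncertain.
Cyp2b9, chr7:26173159-26173301, plus strand: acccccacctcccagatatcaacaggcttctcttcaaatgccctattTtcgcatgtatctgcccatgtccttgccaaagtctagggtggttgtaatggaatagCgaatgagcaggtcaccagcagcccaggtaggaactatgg
Cyp2b13, chr7:26061245-26061387, plus strand: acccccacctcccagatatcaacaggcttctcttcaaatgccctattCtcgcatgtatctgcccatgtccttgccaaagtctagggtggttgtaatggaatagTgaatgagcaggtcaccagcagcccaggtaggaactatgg
These stretches were 98.6% identical and shared the half-site AGGTCA, whereas the whole window of Cyp2b10 was 71.0% identical to that of either and held no AGGTCA. Cyp2b9 read -4.03, -5.01 and -3.96 on the control arrays, -4.17, -6.40 and -3.00 after DSS, -3.56, 0.17 and 0.98 after AOM and 1.58, -0.03 and 1.15 in AOM/DSS. Cyp2b13 read -5.98, -6.16 and -4.71 on the control arrays, -5.60, -6.43 and -6.06 after DSS, -5.04, -0.92 and -0.21 after AOM and 0.77, -0.90 and -0.11 in AOM/DSS. Cyp2b10, the main CAR target, read -5.27, -6.13 and -5.57 on the control arrays, -6.51, -6.41 and -6.02 after DSS, -6.75, -2.15 and -1.49 after AOM and -0.41, -2.09 and -1.19 in AOM/DSS.

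In all 3 genes the neoplasm arrays and AOM replicates 2 and 3 were high, and AOM replicate 1 stayed with the control and DSS arrays. None was above background on a control array. Cyp2b10 and Cyp2b13 were above background on all 3 arrays in AOM/DSS alone, and Cyp2b9 in AOM/DSS and AOM. These genes entered the test through groups where they were high, so their calls are no separate support for the rise. AOM/DSS was at least 27.7-fold above control for Cyp2b9 (adjusted p = 0.00538), at least 14.4-fold for Cyp2b13 (adjusted p = 0.00259) and at least 6.51-fold for Cyp2b10 (adjusted p = 0.0102). AOM against control gave 3.54 ± 1.12 (SE, adjusted p = 0.036) for Cyp2b9, 3.56 ± 1.03 (SE, adjusted p = 0.0268) for Cyp2b13 and 2.19 ± 1.08 (SE, adjusted p = 0.136) for Cyp2b10, the last not called. When each array was left out in turn, the AOM difference ran from 2.65 to 4.92 for Cyp2b9 and lost its call in 5 of 12 fits, and from 2.64 to 5.05 for Cyp2b13, where 4 lost it. Without AOM replicates 2 or 3 or control replicates 1 or 2 both were lost, and Cyp2b9 also without control replicate 3. For Cyp2b10 it ran from 1.21 to 3.84 and was called in 1 fit. The highest of these values are those without AOM replicate 1, the array that stood apart for these genes. By the brightest probes AOM/DSS and AOM did not differ past the threshold in any of the 3, except for Cyp2b10 without AOM replicate 3 (3.22, adjusted p = 0.0462). The second probe of Cyp2b9, above background on 3 arrays, gave 1.98 for AOM/DSS against control (adjusted p = 0.00758), 0.40 for AOM against control (0.515) and 1.58 for AOM/DSS against AOM (0.0234). That of Cyp2b13 was above background on no array. Normexp correction left 2.47 for Cyp2b9 (adjusted p = 0.0726), 1.62 for Cyp2b13 (0.176) and 0.64 for Cyp2b10 (0.568). With slide as a block Cyp2b13 stayed called (adjusted p = 0.0362), and Cyp2b9 (0.0537) and Cyp2b10 (0.0767) did not.

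**Figure D3:**
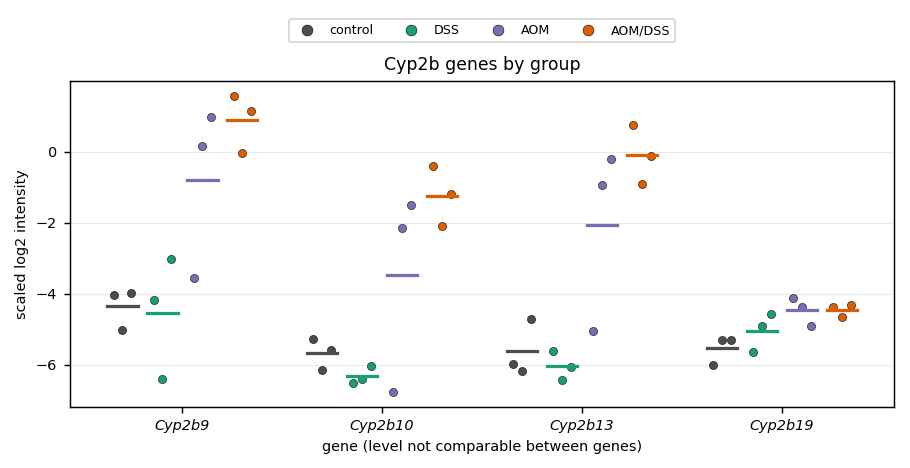
Points give the scaled log2 intensity of the 4 tested Cyp2b genes on each array, coloured by group, with lines at the mean of 3 arrays. For Cyp2b9, Cyp2b10 and Cyp2b13, 2 AOM arrays reach the AOM/DSS level and AOM replicate 1 lies with control and DSS, while Cyp2b19 spans a narrow range.

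Values of other genes stood apart on AOM replicate 1 as well. T cell markers summed to 4.09 there, against 1.41 and 0.61 on AOM replicates 2 and 3, and crypt stem markers to 0.31, against 2.50 and 2.72. Crypt stem markers were 2.96 to 3.74 in AOM/DSS, 0.40 to 1.38 in controls and -0.60 to -0.36 after DSS. Their part in the Cyp2b result was not tested. Cyp2b19, a keratinocyte epoxygenase, read -6.01, -5.30 and -5.30 on the control arrays, -5.65, -4.91 and -4.57 after DSS, -4.12, -4.36 and -4.91 after AOM and -4.37, -4.65 and -4.30 in AOM/DSS. It was called higher in AOM/DSS, 1.09 ± 0.33 (SE, adjusted p = 0.025), and after AOM, 1.07 ± 0.33 (SE, adjusted p = 0.0315), but all of its levels were dim, and normexp correction turned both differences to -1.39 and -1.01. Cyp2b19 was above background on all 3 arrays in AOM/DSS alone and entered the test through that group.

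Of the 3 tested Cyp2j epoxygenases 1 was called. Cyp2j6 read -0.07, 0.20 and 0.38 on the control arrays, 0.45, 0.20 and 0.38 after DSS, -0.32, 0.79 and 0.62 after AOM and 0.86, 1.01 and 1.01 in AOM/DSS. Its rise in AOM/DSS, 0.79 ± 0.28 (SE, adjusted p = 0.0467), was the smallest of those called, and its second probe gave 0.06. The call was lost in 8 of 12 fits that left out an array, with slide as a block (adjusted p = 0.213), under normexp correction (0.0967) and under median scaling (0.153). Cyp2j13 ranged from -2.34 to -0.89 and Cyp2j9 from -3.75 to -1.34 over the 12 arrays, and neither was called in any comparison. Cyp2u1, a fatty acid hydroxylase, read -4.72 to -4.13 in AOM/DSS and -3.71 to -3.00 in controls, without overlap. Its difference of -1.03 ± 0.41 (SE, adjusted p = 0.0768) did not pass and was no larger than the median of the 14 undetected genes.

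In family 3, Cyp3a13 had the larger difference of the 2 genes tested. This intestinal member of the main drug-oxidizing subfamily read 5.27, 4.65 and 4.91 on the control arrays, 2.56, 2.28 and 3.61 after DSS, 2.56, 2.25 and 2.41 after AOM and 0.49, -2.26 and -0.75 in AOM/DSS. Controls lay above all other arrays and neoplasms below. The difference was -5.79 ± 0.58 (SE, adjusted p = 8.92e-05) in AOM/DSS, which is 55.2-fold lower, -2.54 ± 0.58 (SE, adjusted p = 0.0132) after AOM and -2.12 ± 0.58 (SE, adjusted p = 0.127) after DSS. Cyp3a11, the main PXR target in mouse liver, read -3.12, -3.56 and -4.27 on the control arrays, -4.17, -5.58 and -4.98 after DSS, -4.80, -4.67 and -4.78 after AOM and -4.59, -4.46 and -4.72 in AOM/DSS. It was dim, with 7 of 12 arrays above background, and its fall after AOM, -1.10 ± 0.36 (SE, adjusted p = 0.0405), was lost in 9 of 12 fits that left out 1 array.

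Family 4 enzymes hydroxylate the end of fatty acid and eicosanoid chains. Cyp4f14, an inactivator of leukotrienes, read 5.11, 5.69 and 4.53 on the control arrays, 2.33, 3.104 and 2.91 after DSS, 3.49, 2.82 and 2.85 after AOM and -0.20, -0.93 and -2.53 in AOM/DSS. The neoplasm arrays spread over more than the others and lay below all of them. The difference was -6.33 ± 0.53 (SE, adjusted p = 3.72e-05) in AOM/DSS, 80.5-fold lower, -2.06 ± 0.53 (SE, adjusted p = 0.0187) after AOM and -2.33 ± 0.53 (SE, adjusted p = 0.0885) after DSS, the last not called. Cyp4f13 read 2.44, 2.08 and 1.50 on the control arrays, 1.44, 1.59 and 1.75 after DSS, 1.37, 1.15 and 0.90 after AOM and -0.02, 0.42 and -0.13 in AOM/DSS, a difference of -1.92 ± 0.27 (SE, adjusted p = 0.000536) in AOM/DSS. Cyp4f16 read 1.08, 1.56 and 0.86 on the control arrays, 0.24, 1.67 and 0.53 after DSS, 0.78, 0.87 and 0.01 after AOM and -0.27, -0.26 and -0.93 in AOM/DSS, a difference of -1.66 ± 0.40 (SE, adjusted p = 0.00906), and its second probe gave -1.58.

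Cyp4f18, the leukotriene hydroxylase of neutrophils, read 1.31, 1.65 and 1.35 on the control arrays, 0.69, 1.51 and 0.33 after DSS, 2.74, 0.91 and 0.12 after AOM and -0.23, -0.44 and -0.20 in AOM/DSS. AOM replicate 1 was the highest array, and the neoplasms lay below all others. Its difference in AOM/DSS, -1.72 ± 0.55 (SE, adjusted p = 0.0328), was lost in 6 of 12 fits that left out 1 array. Neutrophil markers moved the other way, summing to 5.99 to 7.68 in AOM/DSS and -1.45 to -0.33 in controls. Of B and plasma cell markers 3 of 5 were called lower in AOM/DSS, and no T cell marker was called. Over AOM replicates 1 to 3, B and plasma cell markers summed to 7.81, 7.02 and 6.44, and T cell markers to 4.09, 1.41 and 0.61. The part of these lists was not tested. Cyp4v3, a fatty acid hydroxylase, read 1.34, 0.40 and 1.34 on the control arrays, 0.74, 0.63 and 0.47 after DSS, 0.28, 0.42 and 0.20 after AOM and 0.14, 0.26 and 0.21 in AOM/DSS. Its difference of -0.82 in AOM/DSS (adjusted p = 0.0288) was lost in 5 of 12 such fits and its difference of -0.73 after AOM in 10. Cyp4b1, known for activating furan toxins in lung, read -3.40, -4.88 and -2.66 on the control arrays, -3.99, -2.67 and -3.90 after DSS, -2.35, -3.58 and -3.82 after AOM and -6.24, -6.70 and -6.88 in AOM/DSS. No neoplasm array was above background, and it was at least 2.67-fold lower than control (adjusted p = 0.00358) and at least 3.52-fold lower than AOM (adjusted p = 0.00448). Cyp4b1 entered the test through the AOM arrays alone. Cyp4a10, a PPAR alpha target, read -3.50, -3.66 and -3.95 on the control arrays, -2.93, -2.55 and -2.78 after DSS, -2.31, -2.67 and -3.12 after AOM and -2.92, -3.60 and -3.59 in AOM/DSS. It rose after AOM, 1.00 ± 0.27 (SE, adjusted p = 0.0214), which normexp correction turned to -0.50, and had a similar uncalled difference after DSS, 0.95 ± 0.27 (SE, adjusted p = 0.135).

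**Figure D4:**
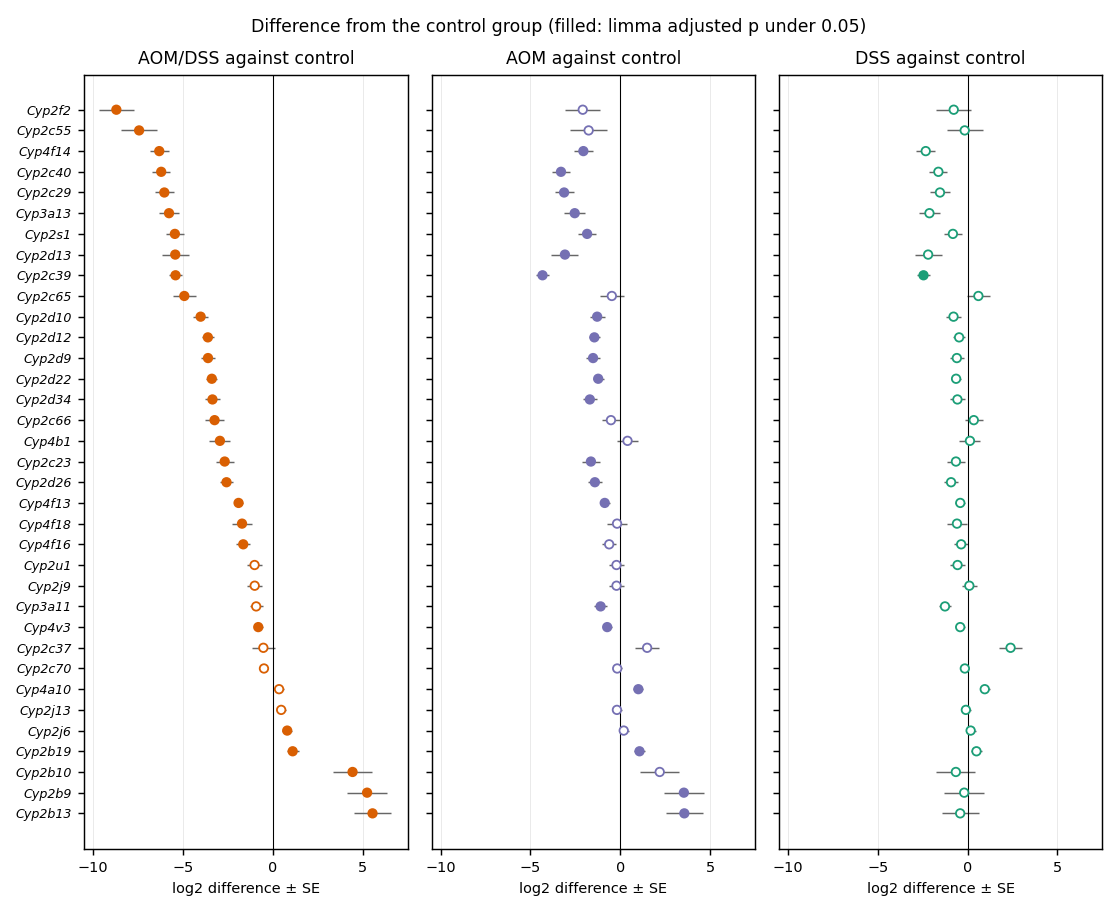
Points give the log2 difference from control of each tested P450 gene, with bars of 1 SE, for AOM/DSS, AOM and DSS epithelium, in the order of the AOM/DSS difference. Filled points passed a limma adjusted p of 0.05: 28 in AOM/DSS, 21 after AOM and 1 after DSS. The 3 panels share the same control arrays.

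After AOM alone 17 P450 genes fell and 4 rose, where 32.4% of all genes were called, 17.6% lower and 14.8% higher. The median P450 difference was -0.87, against -0.01 over all genes, and among the 20 genes above background on all arrays 13 fell and none rose, with 17.4% of such genes lower and 16.2% higher. The largest falls were those of Cyp2c39, Cyp2c40, Cyp2c29, Cyp2d13 and Cyp3a13, and the rises were Cyp2b13, Cyp2b9, Cyp2b19 and Cyp4a10. No AOM array shared a slide with a control, and with slide as a block none of the 21 was called, and 4 of all 18917 genes were (0.0211%). Calls fell to 5 without AOM replicate 2 (10.4% of all genes), to 7 without control replicate 1 (12.1%), to 9 without control replicate 2 (14.6%) and to 11 without AOM replicate 3 (18.8%). Cyp2c29, Cyp2c39, Cyp2c40, Cyp2d12 and Cyp3a13 passed in all 12 fits that left out 1 array. Under normexp correction 4 of the 21 were still called, Cyp2c29, Cyp2c39, Cyp2c40 and Cyp2d13, where 9.81% of all genes were.

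DSS alone left 1 P450 gene called, Cyp2c39, where 0.328% of all genes were called. It was lost without DSS replicate 2 or 3 or control replicate 1 or 2, and by the limma fit of these 2 groups alone. At an unadjusted p under 0.05, 10 of the 35 differed (28.6%), as did 21.1% of all genes. In the limma fit of genes above background on all arrays, none of 20 was called, where 0.226% of such genes were lower and 0.27% higher. The uncalled differences of Cyp2c29, Cyp2c40, Cyp3a13, Cyp4f14 and Cyp2d13 lay between -2.33 and -1.54, and that of Cyp2c37 was the highest at 2.39. Without DSS replicate 1 and control replicate 3, the 2 arrays with most acinar RNA (control replicate 1 was kept), 5 P450 genes were called lower, where 22.6% of all genes were called.

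Neoplasms were also set against the 2 treated epithelia. Against AOM, 21 P450 genes were lower and none higher, where 37.2% of all genes were called, 17.7% lower and 19.5% higher. The largest were Cyp2f2 (-6.63), Cyp2c55 (-5.69), Cyp2c65 (-4.46), Cyp4f14 (-4.27) and Cyp2s1 (-3.61), with adjusted p = 0.00236, 0.00486, 0.00223, 0.00106 and 0.00199. Of the 20 genes above background on all arrays 15 were lower, where 23.9% of such genes were. All 21 kept their sign on the slide that held 2 arrays of each group. Those arrays are among the ones that gave the calls, so the sign is no separate support. Against DSS, 22 were lower and 3 higher, where 35.9% of all genes were called, 18.3% lower and 17.7% higher, and the 3 were Cyp2b9, Cyp2b10 and Cyp2b13. Those 3 entered the test through groups where they were high. Both counts of lower genes include Cyp2c39, which was above background on no array of the groups compared, so its difference there has no direction. No other gene called here was below background on every array of both groups. Here 15 of the 20 were lower, where 24.4% of such genes were. These comparisons share the AOM/DSS arrays with the one against control. With slide as a block, 17 of the 21 stayed called against AOM and Cyp2c23 was added (adjusted p = 0.0335), where 15.1% of all genes were called. Against DSS 9 of the 25 stayed called, where 2.31% of all genes were. DSS and AOM epithelium differed in none of the 35 by limma, where 0.0106% of all genes were called, and in 9 (25.7%) at an unadjusted p under 0.05, as in 14.8% of all genes. For DSS against AOM, Cyp2b9, Cyp2b10 and Cyp2b13 gave -3.73, -2.85 and -3.97 (adjusted p = 0.204, 0.272 and 0.178). Without AOM replicate 1, the array on which these genes were low, the values were -5.10, -4.49 and -5.46, given as a description.

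Genes that serve the P450 system were read in the same fit. Of the 4 electron donors, P450 reductase (Por) fell in AOM/DSS and the 3 cytochrome b5 genes did not pass. Por read 4.16 to 4.44 in controls, 3.33 to 4.40 after DSS, 3.89 to 3.92 after AOM and 3.12 to 3.30 in AOM/DSS, a difference of -1.08 ± 0.25 (SE, adjusted p = 0.0078). Of 16 tested regulators 10 fell and 2 rose in AOM/DSS, where 17.5% of all genes were lower and 17.3% higher. Dbp, a clock-controlled activator of P450 genes, read 5.62, 5.17 and 5.81 on the control arrays, 1.96, 3.20 and 2.90 after DSS, 3.02, 4.15 and 4.36 after AOM and 0.88, 1.18 and 0.71 in AOM/DSS. It fell by 4.61 in AOM/DSS (adjusted p = 4.52e-05), fell by 1.69 after AOM (adjusted p = 0.0145) and fell by 2.85 after DSS (adjusted p = 0.0218). Dbp was the 1 listed gene called after DSS, where 0.328% of all genes were. Nr1i2, the gene of PXR, read 2.31, 1.92 and 1.36 on the control arrays, 1.34, 1.40 and 1.81 after DSS, 1.42, 1.44 and 1.31 after AOM and -0.66, -0.77 and -0.89 in AOM/DSS. Its neoplasm values lay below all others, a difference of -2.63 ± 0.25 (SE, adjusted p = 6.55e-05).

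Nr1i3, the gene of CAR, read -1.35, -1.67 and -2.39 on the control arrays, -2.40, -2.99 and -2.35 after DSS, -3.04, -4.50 and -5.52 after AOM and -3.90, -3.54 and -3.76 in AOM/DSS. It was lower in AOM/DSS, -1.93 ± 0.52 (SE, adjusted p = 0.0162), and after AOM, -2.55 ± 0.52 (SE, adjusted p = 0.00968), and of these 6 arrays all but AOM replicate 1 had high Cyp2b9, Cyp2b10 and Cyp2b13. Any link between Nr1i3 and these genes was not tested. Nr1i3 was above background on 2 of 3 AOM arrays, so the size of its AOM difference is uncertain. Hnf4a, a master regulator of enterocyte and hepatocyte genes, read 3.96, 3.31 and 3.08 on the control arrays, 2.90, 2.95 and 3.41 after DSS, 2.68, 2.73 and 2.93 after AOM and 1.32, 1.75 and 1.25 in AOM/DSS, a difference of -2.01 ± 0.26 (SE, adjusted p = 0.000396) in AOM/DSS. Ppara differed by -2.74 ± 0.38 (SE, adjusted p = 0.000517), and Ahr, the aryl hydrocarbon receptor, by 0.86 ± 0.26 (SE, adjusted p = 0.0263), with neoplasms above all other arrays. Epoxide hydrolases, which act on P450 products, split: Ephx2 differed by -2.83 ± 0.42 (SE, adjusted p = 0.000745) and Ephx1 by 1.52 ± 0.41 (SE, adjusted p = 0.0162). Ephx3 was called higher (limma adjusted p = 0.000135). It was above background on all 3 AOM/DSS arrays and on no array of another group. It entered the test through the neoplasms alone, so the size of its rise is not known. All 4 tested flavin monooxygenases, a parallel group of oxidizing enzymes, fell in AOM/DSS, where 17.5% of all genes did. Fmo5 was lowest at -3.26 ± 0.34 (SE, adjusted p = 1e-04). Of 12 tested genes of the higher P450 families, Cyp7b1 (2.99) and Tbxas1 (2.04) rose and Cyp17a1 (-1.93) fell, with adjusted p = 0.0242, 0.0328 and 0.00173. Both rises rest on control replicates 1 and 2. Cyp7b1 read -6.00, -6.19 and -2.37 on the control arrays and -2.59 to -1.35 in AOM/DSS. Tbxas1 read -2.87, -4.12 and -0.75 in controls and -0.81 to -0.14 in AOM/DSS. Fibroblast markers summed to 4.58, 3.64 and 7.21 and macrophage markers to 2.45, 0.90 and 3.82 on these controls. Their part was not tested. Of 9 heme supply genes Hmox1, the heme-degrading oxygenase, rose by 2.88 (adjusted p = 0.00931) and Uros by 1.00 (adjusted p = 0.0271). Across all genes 34.7% were called in this comparison, so the counts for the higher P450 families and heme supply do not stand out.

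Promoter letters were counted in the 28 tested P450 genes that had a RefSeq window, over the 250 bases before the start in the RefSeq promoter table and on both strands. Where a gene had more than 1 window, the first listed was read. In 14 of the 28 the window reaches into the span of the gene's outermost RefSeq annotation. The HNF4-type motif CAAAGNNCA was present in 9 of 28 (32.1%), against 5.5% of 32851 windows, and none of its 10 matches overlapped another motif searched. Those 9 were Cyp2c37, Cyp2c40, Cyp2c65, Cyp2c70, Cyp2d9, Cyp2d10, Cyp2d26, Cyp3a11 and Cyp4b1. The TATA box TATAAA was present in 9 (32.1%, against 12.4%) and the half-site AGGTCA in 8 (28.6%, against 14.0%). AGTTCA was present in 4 (14.3%, against 11.8%), the aryl hydrocarbon receptor core GCGTG in 6 (21.4%, against 28.2%) and the D-box TTANGTAA, read by Dbp, in none, against 2.1%. Genes of one cluster share sequence by descent, so these shares are descriptions and carry no test. A match is not a site, and its absence speaks of these letters in this window alone.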

How the data were processed

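Per the file headers, spots were quantified by version 10.7.3.1 of Agilent's Feature Extraction (10.7 in the submitters' processing notes) on a grid built on mm9, and the deposited processed intensity is background-subtracted by that software, per the file headers. The authors' deposited value table, on a log2 scale, served as an alternative. RNA was amplified and labelled with Cy3, per the labels' protocols. Here the log2 intensity minus the 75th percentile of each array was used, control spots and outlier-flagged probes were left out, and a probe was kept if well above background on all 3 arrays of a group. Symbols came from RefSeq accessions (GRCm38.p6), and the brightest kept probe stood for a gene. Group means of 18917 genes were compared with limma 3.58.1 in R 4.3.3 (lmFit, eBayes, Benjamini-Hochberg over all genes, adjusted p under 0.05), after the fit was tested on simulated data. A gene not above background on any array of a group has only a bound there, so folds are given as "at least", from the lowest signal well above background on each array. The number of arrays limits the precision. The P450 genes and all gene lists were chosen with earlier results of these data known. Values on every array are given for P450 genes called in at least 1 comparison. Whether replicate numbers pair the arrays is not known. Same-numbered arrays correlated between -0.271 and 0.245 in their deviations, with 9 of 18 pairs over 0.1, and other pairs between -0.256 and 0.38. Alternatives covered background correction, scaling, filter, probe choice, slide, replicate block and each left-out array.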

Additional observations from a re-analysis of the deposited data

How the results depend on the processing

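Over 23 alternatives, the 96 called P450 differences gave 2170 values, of which 1913 kept direction and call, 253 kept direction only and 4 reversed. The reversed values were Cyp2b19 under normexp correction (-1.39 for AOM/DSS and -1.01 for AOM, both against control), Cyp4a10 under normexp (-0.50, AOM against control) and Cyp2c23 with slide as a fixed block (0.11, AOM against control). The cause was not tested. Normexp lowered the calls to 4 for AOM against control, 0 for DSS against control and 13 for AOM/DSS against AOM. It lowered those of the companion genes from 25, 18, 1, 18 and 18 to 14, 6, 0, 7 and 8 (AOM/DSS, AOM and DSS against control, then AOM/DSS against AOM and DSS). In that order normexp called 14.5%, 9.81%, 0.00529%, 6.66% and 10.0% of all genes. Requiring signal on all 12 arrays, which tests fewer genes, gave 17, 13 and 0 calls against control for AOM/DSS, AOM and DSS. Of all such genes 39.2%, 33.6% and 0.496% were called. It gave 15 for AOM/DSS against DSS (39.5% of such genes) and 16 by the F test (28 otherwise). With no filter AOM/DSS against DSS had 39 calls (41.2% of 32087 genes) and the F test 43. That setting also tests P450 genes that were not well above background, so these counts are not out of the 35. Background was lower on the AOM/DSS arrays after scaling, so the added calls are not read as changes in transcript level. Slide as a fixed block gave 0 for AOM (0.0211% of all genes) and 0 for DSS (0.0106%) against control and 9 for AOM/DSS against DSS (2.31%). Slide as a random block gave 8 for DSS against control (13.2% of all genes) and 1 for DSS against AOM (0.365%). The fit of DSS and control alone gave 0 (0.0899% of all genes). Leaving out DSS replicate 1 and control replicate 3, the 2 arrays with most acinar RNA (control replicate 1 kept), gave 5 (22.6%). These arrays were chosen after seeing the data. Leaving out each array in turn gave 24 to 30 calls for AOM/DSS against control (22.7% to 38.9% of all genes). AOM against control had 5 to 21 (10.4% to 38.5%) and DSS against control 0 to 5 (0.00529% to 16.8%). AOM/DSS had 16 to 23 against AOM (17.8% to 42.7%) and 23 to 27 against DSS (17.5% to 46.8%). DSS against AOM had 0 to 3 (0% to 1.71%, with 3 without AOM replicate 1). The F test gave 25 to 29. Over all genes the F test called 52.6% in the main fit, and its share in the other settings is not given. The F test counts in this section are therefore not read as results about the P450 genes. With the replicate block the calls were 28, 20, 1, 21, 25 and 0, and 2 of 96 single calls were lost. Of all genes 32.6%, 31.7%, 0.211%, 35.7%, 34.4% and 0% were called there. Other scaling moved the share of all calls that were higher: for AOM/DSS against control from 49.7% to 38.9% (median scaling) and 39.4% (normexp), against AOM from 52.4% to 33.6% and 40.6%, and against DSS from 49.2% to 35.0% and 35.9%. For AOM against control it went from 45.7% to 57.0% with normexp, and for DSS against control from 48.4% to 0%. The median of all genes shifted to -0.323 with normexp for AOM/DSS against control and to -0.367 with median scaling for AOM/DSS against AOM. Signal over background limits Cyp2b, Cyp2c39, Cyp2c55, Cyp2f2, Cyp3a11, Cyp4a10 and Cyp4b1, among others.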
